A study of Mus musculus with 8 samples.

Results

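The Hippo pathway factors and targets described here are 10 genes of the mouse cornea and limbus. They were chosen by name as the coactivators Yap1 and Wwtr1, the DNA-binding partners Tead1 to Tead4, the kinases Lats1 and Lats2, and the target genes Ctgf and Cyr61. All 10 were found among the 23420 rows of the deposited table that name a gene, by a rule that uses names and no measured value. The names themselves were chosen with earlier results of these data known. Wwtr1 encodes the protein TAZ and is not the gene with the symbol Taz. In current annotation Ctgf is named Ccn2 and Cyr61 is named Ccn1.

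RNA was sequenced from untreated wild type C57BL/6J mice at the age of 8 weeks. The corneal button is the central cornea, whereas the limbal rim is the zone around it, where cornea meets conjunctiva. Tissues of several eyes were pooled before RNA extraction, so that neither tissue has a value per animal. The labels number 4 samples per tissue, with numbers that sequencing lanes also carry, but the deposited means are built from 1 cornea library and 1 limbus library, with 26104317 and 21182025 reads on named genes. The reads of each gene in either library were worked back from its deposited mean, with the deposited fold change and standard error used to choose between possible pairs. With 1 library per tissue, none of the differences below has a replicate check, and the 95% confidence intervals (CI) are exact Clopper-Pearson intervals that measure the error of counting alone. The methods name no molecular identifiers, so that PCR copies cannot be told from independent molecules.

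The Hippo pathway is a kinase cascade that restrains growth. When it is active, the MST kinases activate Lats1 and Lats2, which phosphorylate YAP and TAZ so that 14-3-3 proteins hold them in the cytoplasm or they are degraded. When it is inactive, YAP and TAZ enter the nucleus, bind TEAD factors and raise the transcription of genes such as Ctgf and Cyr61. The pathway also responds to cell density and to the stiffness of the matrix. These statements are background, and transcript levels do not show whether YAP or TAZ was phosphorylated or nuclear.

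TEAD factors are known to bind the letters GGAATG. The promoters shown here are some of those of target genes and coactivators that hold these letters before the transcription start. The sequences are the 250 bases before an annotated start, from RefSeq on GRCm38.p6, written 5′ to 3′ on the strand of the gene. Capitals mark GGAATG, or CATTCC where the letters lie on the opposite strand. Cyr61 (chr3:145649986-145650235, minus strand), Amotl2 (chr9:102717554-102717803, plus strand) and Ankrd1 (chr19:36119845-36120094, minus strand) are targets, and Yap1 (chr9:8004597-8004846, minus strand) and Wwtr1 (chr3:57575911-57576160, minus strand) are the coactivators.
Cyr61: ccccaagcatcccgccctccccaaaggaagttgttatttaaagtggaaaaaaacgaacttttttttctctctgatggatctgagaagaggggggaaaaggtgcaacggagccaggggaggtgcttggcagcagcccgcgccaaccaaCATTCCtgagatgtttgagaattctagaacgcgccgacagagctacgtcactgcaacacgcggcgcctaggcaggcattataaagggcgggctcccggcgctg
Amotl2: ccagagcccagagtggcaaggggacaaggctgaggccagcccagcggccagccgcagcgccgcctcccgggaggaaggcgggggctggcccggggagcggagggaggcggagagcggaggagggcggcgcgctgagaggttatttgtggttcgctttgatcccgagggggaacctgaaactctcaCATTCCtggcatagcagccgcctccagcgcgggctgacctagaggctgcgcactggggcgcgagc
Ankrd1: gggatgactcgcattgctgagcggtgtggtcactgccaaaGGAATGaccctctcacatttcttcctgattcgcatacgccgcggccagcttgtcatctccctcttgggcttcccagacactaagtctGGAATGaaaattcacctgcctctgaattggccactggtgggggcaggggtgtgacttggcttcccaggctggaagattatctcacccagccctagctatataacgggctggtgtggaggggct
Yap1: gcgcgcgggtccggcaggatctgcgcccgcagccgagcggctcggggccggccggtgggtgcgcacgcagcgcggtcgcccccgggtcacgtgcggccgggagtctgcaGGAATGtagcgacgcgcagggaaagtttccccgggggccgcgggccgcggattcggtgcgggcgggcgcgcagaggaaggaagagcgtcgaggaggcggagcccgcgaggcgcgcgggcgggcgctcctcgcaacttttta
Wwtr1: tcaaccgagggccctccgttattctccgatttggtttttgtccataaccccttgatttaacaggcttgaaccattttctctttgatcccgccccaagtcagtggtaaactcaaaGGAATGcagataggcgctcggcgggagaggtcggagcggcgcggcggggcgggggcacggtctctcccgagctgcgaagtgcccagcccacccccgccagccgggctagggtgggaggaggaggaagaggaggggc

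The letters begin 103 bases before the start of Cyr61, 65 before that of Amotl2, and 210 and 123 before that of Ankrd1. In Yap1 they begin 141 bases and in Wwtr1 136 bases before the start. Among the 10 genes, 7 had a promoter in the table used, and 4 of these held the letters (Yap1, Wwtr1, Tead3 and Cyr61). Promoters of Ctgf, Tead1 and Tead4 were not analysed here. Over all 27025 genes with a promoter there, 14.4% held the letters in at least 1 such stretch. A match describes the letters in the stretch and does not show that a TEAD factor was bound.

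Each ratio sets the limbus over the cornea, with reads divided by the size factor of their library, and a difference is called beyond counting error when the CI of the log2 ratio leaves out 0. All 10 genes had more than 3 reads in both libraries, the minimum for a ratio. Beyond counting error, limbal values were higher for Tead2, Tead3 and Ctgf, 3 of the 10, where 33.2% of the 13862 genes tested were. Yap1, Tead1 and Lats1 were higher in the cornea, again 3 of the 10, where 40.6% of all genes tested were. Differences of 2-fold or more were found for Ctgf and Tead2, both higher in the limbus, a call made for 14.7% of all genes in that direction. None of the 10 genes was 2-fold higher in the cornea, a call made for 8.66% of all genes. In either direction, 6 of the 10 genes lay beyond counting error and 2 at 2-fold or more, against 73.7% and 23.4% of all genes tested. Their median log2 ratio was 0.01, against -0.05 for all genes tested. In bulk tissue, fewer cells of a type and less RNA per cell cannot be told apart.

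**Figure D1:**
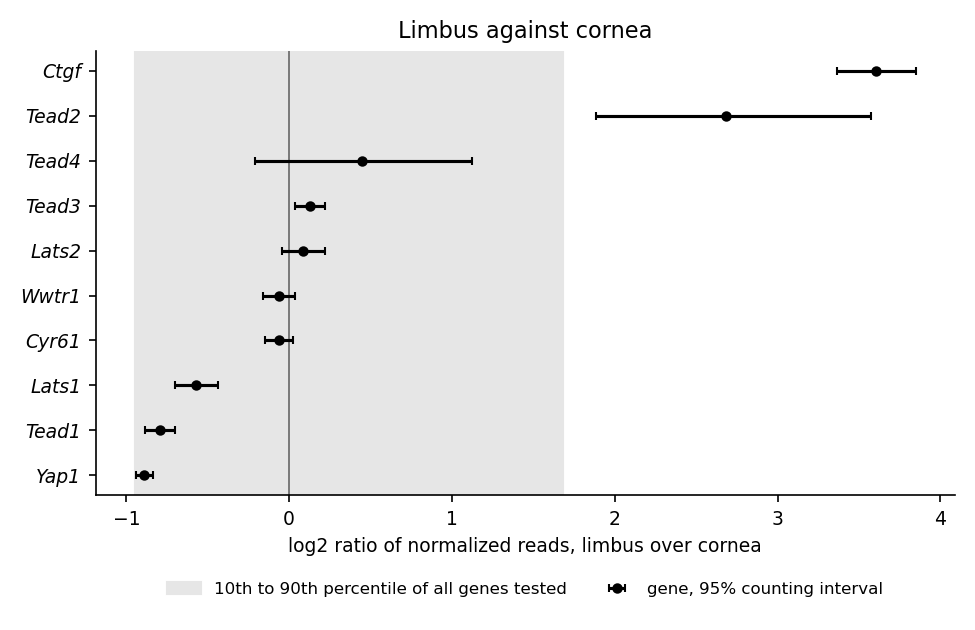
The log2 ratio of normalized reads, limbus over cornea, for each of the 10 genes (points) with its 95% counting interval (bars), ordered by ratio. The gray band spans the 10th to the 90th percentile of all genes tested, from -0.95 to 1.68, and Ctgf and Tead2 lie to its right.

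Yap1 and Wwtr1 encode the coactivators YAP and TAZ, which have no DNA-binding domain of their own. Yap1 gave 8344 corneal and 4214 limbal reads, or 8072 and 4356 normalized reads. It was therefore 1.85-fold higher in the cornea (95% CI 1.79 to 1.92), with a log2 ratio of -0.89, and 11.6% of all genes tested had a lower ratio. Wwtr1 gave 1763 corneal and 1580 limbal reads, or 1705 and 1633 normalized reads. Its log2 ratio was -0.06, with a counting interval of -0.16 to 0.04 that includes 0. Scaled to total reads, the ratio of Wwtr1 was 0.14 (95% CI 0.04 to 0.24), so that its direction depended on the scaling.

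The balance of the pair can be read within each library, where the scaling between libraries has no part. Per kilobase of exons, Yap1 was 5.42 times the level of Wwtr1 in the cornea (95% CI 5.15 to 5.71) and 3.06 times in the limbus (95% CI 2.88 to 3.24). Yap1 thus made up 84.4% of the level of the pair in the cornea and 75.3% in the limbus. The log2 change of the ratio between libraries was -0.83 (95% CI -0.94 to -0.71), from the exact conditional interval of the odds ratio. Together the pair gave 10107 corneal and 5794 limbal reads, which is a log2 ratio of -0.71 (95% CI -0.75 to -0.66).

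Tead1, Tead2, Tead3 and Tead4 encode the TEAD factors, which bind DNA and recruit YAP or TAZ. Tead1 gave 2684 corneal and 1450 limbal reads. It was 1.73-fold higher in the cornea (95% CI 1.62 to 1.85), with a log2 ratio of -0.79. Tead2 had the opposite direction, with 15 corneal and 90 limbal reads. It was 6.41-fold higher in the limbus (95% CI 3.69 to 11.9), with a log2 ratio of 2.68 above that of 95.3% of all genes tested, but with the wide interval that 15 reads allow.

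Tead3 gave 1937 corneal and 1982 limbal reads. Its log2 ratio of 0.13 (95% CI 0.04 to 0.22) lay beyond counting error but corresponds to a 1.09-fold difference. Tead4 gave 36 corneal and 46 limbal reads, which is a log2 ratio of 0.45 (95% CI -0.21 to 1.12). For Tead4 no difference could be detected with so few reads.

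Tead3 was the most abundant TEAD factor per kilobase of exons in both libraries, with 608 normalized reads per kilobase in the cornea and 665 in the limbus. Without division by length Tead1 had the most reads in the cornea, 57.4% of the family. Per kilobase Tead1 followed with 258 and 149, whereas Tead2 had 4.14 and 26.6 and Tead4 had 9.71 and 13.3. In the cornea Tead2 was below Tead4, at 0.427 times its level (95% CI 0.217 to 0.800). In the limbus the order of these 2 genes was turned, with Tead2 at 2.01 times the level of Tead4 (95% CI 1.39 to 2.93).

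By share of the summed TEAD level per kilobase, Tead3 made up 69.1% in the cornea (95% CI 67.8 to 70.3) and 77.9% in the limbus (95% CI 76.7 to 79.1). The share of Tead1 was 29.3% in the cornea (95% CI 28.1 to 30.6) and 17.5% in the limbus (95% CI 16.5 to 18.4). Tead2 had a share of 0.471% in the cornea and 3.11% in the limbus. Tead1 against Tead3 changed between libraries by -0.92 on the log2 scale (95% CI -1.05 to -0.79), and Tead2 against Tead3 by 2.55 (95% CI 1.75 to 3.45). Tead3 against Tead4 changed by -0.32, and this interval, from -0.998 to 0.35, includes 0. The intervals of these shares come from the delta method on counts, while those of pairs are exact. The sum of all 4 per kilobase was 881 in the cornea and 854 in the limbus.

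**Figure D2:**
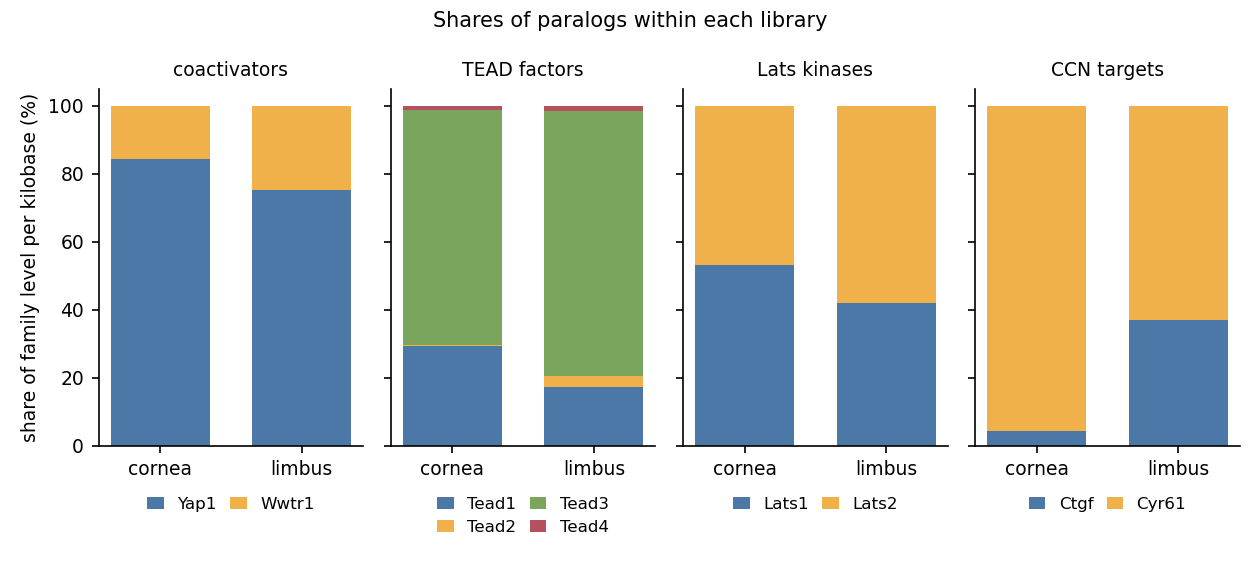
Shares of each paralog in the summed level per kilobase of exons of its family, in percent, with 1 bar for the cornea library and 1 for the limbus library. Ctgf has 4.41% of the Ctgf and Cyr61 pair in the cornea and 36.9% in the limbus, Lats1 has 53.2% and 41.9% of the Lats pair, and Tead3 holds most of the TEAD level in both bars.

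Lats1 and Lats2 encode the kinases that phosphorylate YAP and TAZ. Lats1 gave 1220 corneal and 769 limbal reads. It was 1.48-fold higher in the cornea (95% CI 1.36 to 1.63), with a log2 ratio of -0.57. Lats2 gave 950 corneal and 944 limbal reads, or 919 and 976 normalized reads. The log2 ratio of Lats2 was 0.09, with an interval from -0.04 to 0.22 that includes 0, and 0.29 (95% CI 0.16 to 0.42) when scaled to total reads.

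Per kilobase of exons, Lats1 was 1.14 times the level of Lats2 in the cornea (95% CI 1.05 to 1.24) and 0.722 times in the limbus (95% CI 0.656 to 0.795). The log2 change of the ratio was -0.66 (95% CI -0.84 to -0.47). The order in the cornea depends on the length used, since Lats1 had 53.2% of the level of the pair with the union of exons and 48.0% with the longest transcript. With the longest transcript the interval of this share, from 45.9% to 50.2%, does not separate the kinases in the cornea. In the limbus Lats1 was the lower of the 2 with either length.

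Ctgf and Cyr61 encode secreted CCN proteins, which bind matrix and integrins and are the targets most often read out for YAP and TAZ. Ctgf gave 155 corneal and 1762 limbal reads, or 149.9 and 1821 normalized reads. It was 12.1-fold higher in the limbus (95% CI 10.3 to 14.4), with a log2 ratio of 3.60 (95% CI 3.37 to 3.85) above that of 98.1% of all genes tested. Cyr61 gave 2448 corneal and 2193 limbal reads, or 2368 and 2267 normalized reads. Its log2 ratio was -0.06, with a counting interval of -0.15 to 0.02, and under total reads the ratio was 0.14 (95% CI 0.06 to 0.23), so that its direction depended on the scaling.

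Per kilobase of exons, Ctgf was at 0.0461 times the level of Cyr61 in the cornea (95% CI 0.0389 to 0.0542) and at 0.585 times in the limbus (95% CI 0.549 to 0.623). The log2 change of 3.67 had a counting interval from 3.41 to 3.93 and does not depend on the scaling between libraries.

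**Figure D3:**
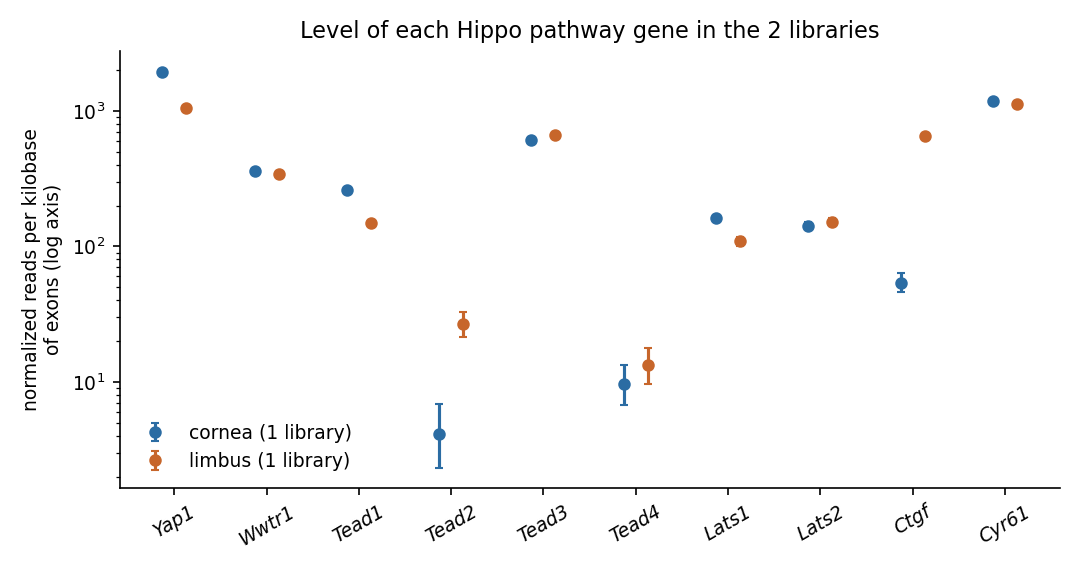
Normalized reads per kilobase of exons (log axis) for each of the 10 genes in the cornea library and the limbus library, with exact 95% Poisson intervals as bars. Yap1 has the highest corneal level (1935) and Cyr61 the highest limbal value (1123, with an interval that touches that of Yap1), Ctgf moves from 54.1 to 657, and Tead2 and Tead4 are the lowest in both libraries.

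Ranked by level per kilobase in the cornea, the order was Yap1 (1935 normalized reads per kilobase), Cyr61 (1173), Tead3 (608), Wwtr1 (357), Tead1 (258), Lats1 (162), Lats2 (142), Ctgf (54.1), Tead4 (9.71) and Tead2 (4.14). In the limbus the order was Cyr61 (1123), Yap1 (1044), Tead3 (665), Ctgf (657), Wwtr1 (342), Lats2 (151), Tead1 (149), Lats1 (109), Tead2 (26.6) and Tead4 (13.3). Ctgf moved from rank 8 to rank 4. In the cornea the intervals of Tead4, from 6.80 to 13.4, and of Tead2, from 2.32 to 6.84, touch. In the limbus the intervals of the highest ranks also touch, from 1076.3 to 1171 for Cyr61 and from 1013 to 1076.4 for Yap1. By counting error the limbal levels of Tead3, from 636 to 695, overlap those of Ctgf, from 626 to 688, and those of Lats2 overlap those of Tead1. Among the 13707 genes tested that had a known length, 94.8% had a lower level than Yap1 in the cornea and 90.3% in the limbus. Tead2 was in the lower part of this distribution in both libraries, with 8.05% and 19.4% of these genes below it.

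In GRCm38, Yap1 lies on chromosome 9 from 7931999 to 8004596, Wwtr1 on chromosome 3 from 57455649 to 57575910, and Cyr61 on chromosome 3 from 145646976 to 145649981. Tead1 lies on chromosome 7 from 112679318 to 112906807, Tead2 on chromosome 7 from 45215753 to 45233644, Tead3 on chromosome 17 from 28331671 to 28350817, and Tead4 on chromosome 6 from 128224288 to 128300823. Lats1 lies on chromosome 10 from 7681214 to 7716460, Ctgf on chromosome 10 from 24595442 to 24598683, and Lats2 on chromosome 14 from 57689662 to 57758388. Other annotated genes overlap 7 of the 10. These overlaps are between whole gene spans, and whether exons overlap was not tested. On the same strand, the microRNA gene Gm44462 lies within Tead1 and the protein-coding Gm49361 overlaps Lats2. Where exons overlap, even stranded counting could split or share reads. On the opposite strand, Cd37 overlaps Tead2, Gm15270 overlaps Ctgf, Gm20416 overlaps Yap1, Gm16016 overlaps Wwtr1, 2310014F06Rik overlaps Tead1, Gm21893 overlaps Tead4, and Gm20430 and Gm26440 overlap Lats2. The libraries were stranded, but whether counting used strand is not given in the sources used here. Reads of these opposite-strand pairs may thus not have been told apart where exons overlap.

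The tissue pieces held several cell types, which bears on every ratio above. Markers of the corneal epithelium (Krt12, Krt5, Aldh3a1 and Pax6) were higher in the cornea beyond counting error in 4 of 4. Their summed level was 2.41-fold higher there. Markers of the limbal and conjunctival epithelium (Krt14, Krt15, Krt19, Krt13 and Krt4) were higher in the limbus in 5 of 5. The summed level of these was 7.76-fold higher there. Over all genes tested, 40.6% and 33.2% were called in these directions. The libraries were assigned to the tissues by the sign of the deposited fold change, read as cornea over limbus. The marker lists were chosen with earlier results of these data known, so they give no independent check of that assignment.

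Ctgf and Tead2 were higher in the limbus library, where the summed markers of every cell type listed other than the corneal epithelium were also higher. The summed normalized reads were 177 in the cornea and 2143 in the limbus for 5 genes of blood vessel endothelium, and 318 and 2760 for 6 genes of smooth muscle and pericytes, with Des at 0 in the cornea. For 4 fibroblast genes the sums were 14620 and 38114, for 4 keratocyte genes 49905 and 57948, and for 4 genes of the corneal endothelium 2562 and 7151. The sums were 32.9 and 9649 for 5 skeletal muscle genes, 306 and 1644 for 5 melanocyte genes, 723 and 2301 for 4 leukocyte genes, and 4247 and 6958 for 4 Schwann cell genes. With the size factors, more normalized reads in the limbus were found for all genes of these lists other than Kera, Lum and the fibroblast gene Pdgfra. Among all genes tested, 46.6% had a ratio above 0. The keratocyte genes did not share 1 direction, with log2 ratios of -2.99 for Kera, -0.01 for Lum, 0.64 for Dcn and 3.49 for Ptgds. The part of these cell types in the ratios of Ctgf and Tead2 was not tested.

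Beyond the 10 genes, 70 genes were grouped in lists, by role in the pathway, as its targets, or as other members of the CCN family. Of these, 66 had more than 3 reads in both libraries. Beyond counting error, 32 of these were higher in the cornea and 26 had higher limbal values, with a median log2 ratio of -0.09. Over all genes tested these shares were 40.6% and 33.2%. Differences of 2-fold or more numbered 9 toward the limbus and 6 toward the cornea, against 14.7% and 8.66% of all genes tested. The counts of each list below stand beside these same shares and the median of -0.05 over all genes, and nothing particular to a list is read from them.

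The kinase module holds the kinases and subunits that act with or beside Lats, 11 genes in all. Of these, 7 were higher in the cornea and 4 in the limbus beyond counting error, with a median log2 ratio of -0.54, where 40.6% and 33.2% of all genes tested were called in these directions. The differences of 2-fold or more were all toward the cornea and concerned 3 genes. Mob1b, an activating subunit of the Lats kinases, gave 709 corneal and 213 limbal reads and was 3.11-fold higher in the cornea, with a log2 ratio of -1.64 (95% CI -1.87 to -1.42). Its paralog Mob1a had 1989 and 823 reads and was 2.26-fold higher in the cornea, with a log2 ratio of -1.18 (95% CI -1.30 to -1.06). Taok1, a kinase upstream of MST, gave 2597 corneal and 1113 limbal reads, with a log2 ratio of -1.13 (95% CI -1.23 to -1.02).

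STRIPAK, a phosphatase complex that removes activating phosphates from the MST kinases, is represented by 9 genes. Of these, 8 could be compared, 5 of them higher in the cornea and 2 in the limbus, with a median log2 ratio of -0.78. Strn3 gave 3349 corneal and 1545 limbal reads, with a log2 ratio of -1.02 (95% CI -1.11 to -0.93). For its paralog Strn, 1726 and 869 reads gave a log2 ratio of -0.89 (95% CI -1.01 to -0.78). The catalytic subunit gene Ppp2ca gave 13227 corneal and 7035 limbal reads, with a log2 ratio of -0.82 (95% CI -0.86 to -0.77). Strip2 had 3 and 2 reads, and no ratio is given.

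The 16 upstream scaffolds link Lats to the membrane, to junctions and to cell polarity. Here limbal values were higher for 7 genes and corneal values for 5, and the median log2 ratio was 0.05. The 3 differences of 2-fold or more were all toward the limbus. Amot, an angiomotin that binds YAP, gave 29 corneal and 114 limbal reads, with a log2 ratio of 2.07 (95% CI 1.47 to 2.71). Dchs1, an atypical cadherin, gave 119 corneal and 271 limbal reads, with a log2 ratio of 1.28 (95% CI 0.97 to 1.61). Wtip, a LIM protein that restrains Lats, gave 216 corneal and 455 limbal reads, with a log2 ratio of 1.17 (95% CI 0.93 to 1.41).

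Of the 10 genes for retention and degradation of YAP and TAZ, 5 were higher in the cornea and 3 in the limbus, none of them by 2-fold. The median log2 ratio was -0.19 and turned to 0.02 under total reads. The 14-3-3 gene Ywhaq gave 4580 corneal and 2214 limbal reads, which is a log2 ratio of -0.95 (95% CI -1.03 to -0.88). Ywhae gave 12553 corneal and 7882 limbal reads, with a log2 ratio of -0.58, and Ywhag gave 3249 corneal and 2156 limbal reads, with a log2 ratio of -0.50.

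Among the vestigial-like cofactors, which bind TEAD factors in place of YAP and TAZ, the genes diverged. Vgll3 gave 1001 corneal and 236 limbal reads and was 3.97-fold higher in the cornea, with a log2 ratio of -1.99 (95% CI -2.20 to -1.78). Vgll1 had 21 and 71 reads and was 3.61-fold higher in the limbus, with a log2 ratio of 1.85 (95% CI 1.13 to 2.63). Vgll4 gave 412 corneal and 452 limbal reads, with a log2 ratio of 0.23 (95% CI 0.03 to 0.43), and Vgll2 gave 0 corneal and 2 limbal reads.

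The 18 other genes widely used as YAP and TAZ targets did not share 1 direction. With 17 compared, limbal values were higher for 8 and corneal values for 8 beyond counting error, around a median log2 ratio of 0.21. Nt5e, an ecto-enzyme that makes adenosine, gave 1648 corneal and 7464 limbal reads, which is a log2 ratio of 2.27 (95% CI 2.20 to 2.35). Tgfb2, a TGF-β ligand, gave 63 corneal and 181 limbal reads, with a log2 ratio of 1.62 (95% CI 1.20 to 2.06). Rbms3, an RNA-binding protein gene, gave 202 corneal and 356 limbal reads, with a log2 ratio of 0.91 (95% CI 0.66 to 1.17).

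Further targets fell outside the rule for named genes and are given because of their values. Igfbp3, an IGF-binding protein gene, gave 5 corneal and 337 limbal reads, which is a log2 ratio of 6.17 (95% CI 4.93 to 7.80). Ankrd1, with a pair of GGAATG matches in the promoter shown above, went the other way with 25 corneal and 7 limbal reads, with a log2 ratio of -1.74 (95% CI -3.19 to -0.49). Amotl2, also shown above, gave 4173 corneal and 4516 limbal reads, with a log2 ratio of 0.21 (95% CI 0.15 to 0.27). F3, the tissue factor gene, gave 9628 corneal and 5274 limbal reads, with a log2 ratio of -0.77 (95% CI -0.82 to -0.72). Foxf2 had 0 and 6 reads. Among the 18 genes, 13 had a promoter in the table used, and 5 of them held GGAATG, against 14.4% of all genes with a promoter. These 5 were Amotl2, Ankrd1, Axl, Crim1 and Ptpn14, with log2 ratios of 0.21, -1.74, 0.65, -0.17 and 0.46.

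The CCN family holds 4 genes beside Ctgf and Cyr61. Wisp1 gave 24 corneal and 268 limbal reads, which is a log2 ratio of 3.58 (95% CI 2.97 to 4.24) close to that of Ctgf. Wisp2, given because of its value, gave 5 corneal and 923 limbal reads, with a log2 ratio of 7.62 (95% CI 6.40 to 9.25). Nov was higher in the cornea, with 201 corneal and 109 limbal reads, with a log2 ratio of -0.79 (95% CI -1.14 to -0.44). Wisp3 had 0 and 2 reads, and no ratio is given. Of the 6 CCN genes, Ctgf, Wisp1 and Wisp2 were thus higher in the limbus, Nov in the cornea, and Cyr61 had a ratio whose interval included 0.

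**Figure D4:**
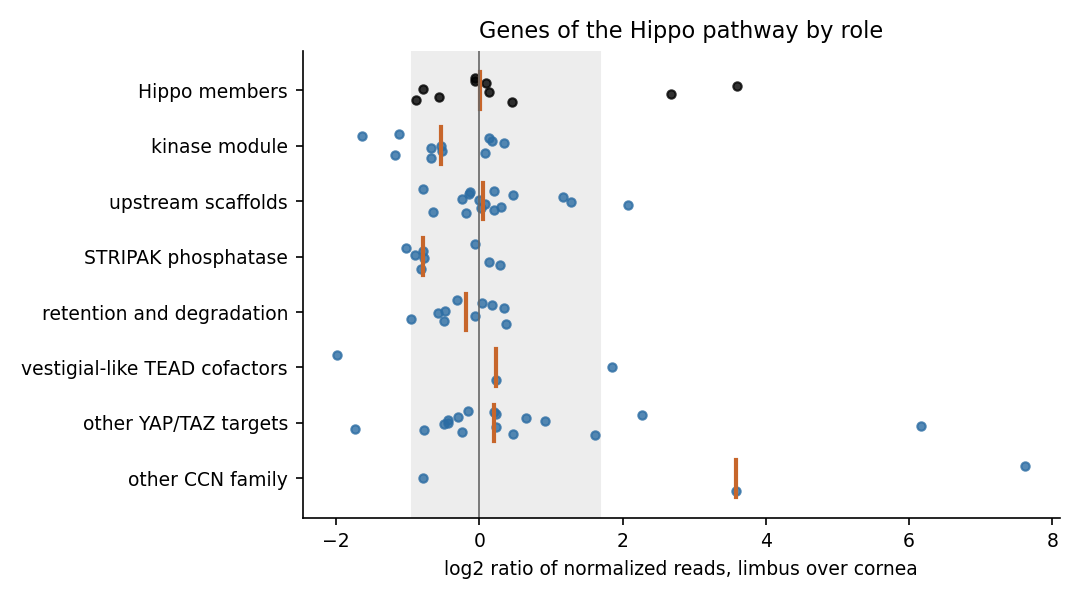
The log2 ratio of normalized reads, limbus over cornea, for each gene with more than 3 reads in both libraries (points). Genes are grouped by role in the Hippo pathway or as other CCN genes, with the 10 genes in black at the top. A vertical bar marks the median of each list. The gray band spans the 10th to the 90th percentile of all genes tested. The kinase module and the STRIPAK phosphatase have medians of -0.54 and -0.78, and the other CCN genes reach 7.62.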

How the data were processed

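RNA from pooled corneal buttons and limbal rims was sequenced as stranded libraries. Adaptor trimming by the authors was followed by mapping to GRCm38 (mm10), done in CLC Genomics Workbench 20, and TMM normalization. The authors deposited 1 table of the comparison, with a mean normalized signal per gene, in reads after scaling of each library. It is labelled as output of the DESeq software, so its scaling may not be the TMM normalization that the paper names. The deposited table also holds a log2 fold change of cornea over limbus plus a standard error and p-values before and after adjustment. These are the authors' own results and are not printed.

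The signal moves in steps of whole reads from 2 libraries, with 109 cornea reads equal in weight to 102 limbus reads. The fold change and standard error were used only to find which pair of whole read numbers gave each mean, and the sign of the change to tell the 2 libraries apart. Solving a normal-prior shrinkage model, with its prior taken from the largest standard error, gave reads that differed from whole numbers by at most 0.001 of their value for 17442 of 17442 genes with a mean above 0. For the 10 genes the solution missed the chosen pair by at most 0.014 reads, and the next pair by at least 18.0. The read numbers are thus derived, and no count table was used. The method was tested on simulated data. Size factors were 1.03 for the cornea and 0.967 for the limbus, and 17484 rows without a gene name were left out. The accession beside each gene name was not used, since it belonged to the named gene in 2 of 18554 rows.

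No test across replicates was possible. A library at 3 reads or fewer gave no ratio. Levels were divided by the union of exons in the GENCODE M21 basic set. The members and gene lists were chosen with earlier results of these data known. Named genes are the 10 members and, per pathway list, the 3 with the largest absolute log2 ratio among genes with at least 10 reads in both libraries, together with any listed at 0. Other names were added after their values were seen. Scaling, pseudocount, fold, filters on low values and lengths were varied. Markers of 11 cell types were compared, and Adgre1 of the leukocyte list was not analysed here. A comparison of protein sequences planned for the paralogs was not run. Calculations used Python 3.11.15, numpy 2.4.6, pandas 2.3.3, scipy 1.17.1 and matplotlib 3.10.9.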

Additional observations from a re-analysis of the deposited data

How the results depend on the processing

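Scaling moved every log2 ratio alike, by 0.21 for total reads, 0.14 for centring on the median of genes with at least 100 reads, and 0.02 for the trimmed mean of M-values. Under total reads the log2 ratios were -0.68 for Yap1, 0.14 for Wwtr1, -0.59 for Tead1, 0.33 for Tead3, -0.36 for Lats1, 0.29 for Lats2 and 0.14 for Cyr61. Centred on the median they were -0.75 for Yap1, 0.079 for Wwtr1, -0.65 for Tead1, 0.27 for Tead3, -0.43 for Lats1, 0.23 for Lats2 and 0.079 for Cyr61. The number of the 10 genes higher in the limbus beyond counting error went from 3 to 6 under total reads, by the addition of Wwtr1, Lats2 and Cyr61, and to 4 with centring. The number higher in the cornea was 3 under each scaling. Over all genes tested, the share with a ratio above 0 went from 46.6% to 58.9% under total reads and to 55.4% with centring. At a fold of 1.5, 2 of the 10 genes and 2847 of the 13862 genes tested were called higher in the cornea. Under total reads, the 2-fold calls over all genes were 744 toward the cornea and 2394 toward the limbus. With a mean of at least 50 required, 1343 genes were called higher in the limbus. That filter leaves genes out, so this count is not over all 13862 genes tested. The pseudocount and the trimmed mean kept the ratios of the 10 genes within their intervals. With reads not divided by length, Tead1 had 57.4% of the corneal and 40.6% of the limbal TEAD reads, against 29.3% and 17.5% per kilobase. No paired analysis was possible because values of the numbered samples were not given to this work, and for the same reason no replicate could be left out. No other pair of read numbers met the tolerance for the 10 genes, so that alternative gave no value. Depth limits Tead2 and Tead4, with 15 to 90 reads per library.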
